A study of Saccharomyces cerevisiae with 27 samples.

Results

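Transcript levels in baker's yeast after 120 min at 41 °C were compared with those after 60 min at 41 °C, across all measured genes. The comparison used the 3 arrays labelled 120 min of heat and the 3 labelled 60 min, chosen by their sample titles, 6 of the 27 arrays of the series. All 27 came from strain X2180-1A of Saccharomyces cerevisiae, a laboratory strain, grown in aerated 500 ml fermentors on minimal medium with 2% glucose at 28 °C. The heated cultures had an optical density at 600 nm of 0.50 when they were warmed to 41 °C, which took at most 5 min, and samples followed at 10, 30, 60, 120, 240 and 360 min. Control samples came from cultures kept at 28 °C, at 0 min (density 0.50), 120 min (0.88) and 240 min (1.5). Each of the 9 groups held 3 arrays labelled as biological replicates, each hybridised with cRNA from 20 µg of total RNA. What the heated cultures' own density was at 60 and 120 min is not given in the sources used here.

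Yeast cells moved to a high but survivable temperature pass through a strong early response and then settle into a new state. In the early phase the heat shock factor Hsf1 drives chaperone genes, the paired factors Msn2 and Msn4 drive a general stress programme, and genes for ribosomes and their assembly are turned down. Much of this is transient, and cells that stop at the G1 phase of the cell cycle in the first period usually resume budding. The step from 60 to 120 min lies after the early peak, so it asks what was still moving once the cells had been hot for some time.

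Every difference below is on the log2(signal + 113.81) scale, in which a signal is the quantile normalized intensity of a gene's probe set and 113.81 is an offset that damps noise in dim genes. It is given as 120 min minus 60 min with its standard error, from 3 arrays against 3. The offset understates the folds of dim genes. A gene "rose" or "fell" where limma's adjusted p (Benjamini-Hochberg over 5656 genes) was at most 0.05, and folds are on the same scale. Levels of different genes come from different probes and are not comparable with each other. RNA was taken from whole cultures, so a change in every cell and a change in the share of cells that express a gene cannot be told apart.

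The 6 arrays were similar in quality on average between the 2 times, but single arrays differed. Before normalization their mean signal over the tested genes was 1063 to 1088 at 60 min and 1093 to 1117 at 120 min, and the median signal was 507 to 528 and 530 to 566. Both were higher on all 3 arrays at 120 min, which gives an exact permutation p of 0.1 (two-sided), the smallest that 3 arrays against 3 allow. The background from 19 probe sets for non-yeast transcripts was 35.4 to 42.9 and 37.1 to 40.6 (exact p = 0.8). The 3'-to-5' ratio of SRB4, a measure of RNA integrity taken from probe sets at both ends of the transcript, averaged 4.12 and 4.28 (exact p = 0.8). It was 3.44 to 5.1 at 60 min and 3.78 to 5.09 at 120 min. Replicate 1 at 60 min and replicate 3 at 120 min had the highest ratios of their groups. With 3 arrays against 3 these tests cannot show that the groups are alike. The 120 min control arrays lay apart from the heated ones. Their background was 66.16 to 81.36 and their SRB4 ratio 1.98 to 2.52. Counts against that control, given below, carry this difference between the arrays. The typical spread was a median SD of 0.084 at 60 min and 0.109 at 120 min of heat on the log2 scale. Genes typical of mating type a gave signal in both groups (MFA1, the a-factor gene, 971 to 1223 and 737 to 863), but so did 2 genes typical of mating type alpha (SAG1, 393 to 485 and 308 to 447, and MF(ALPHA)1, 429 to 470 and 421 to 467). The probe sets therefore do not settle the mating type, and the labels give only the strain name.

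The change from 60 to 120 min was wide but small in size. Of 5656 genes, 1036 rose (18.3%) and 886 fell (15.7%), together 1922 or 34%, with a median absolute change of 0.14 over all genes. At 2-fold or more, only 12 rose (0.212%) and 24 fell (0.424%). The 3 arrays at 120 min all lay above the 3 at 60 min for 1263 genes (22.3%), and all lay below for 1075 (19%). Over the 120 min from the 0 min control to the 120 min control, limma called 0 genes (0%), with 97 at an unadjusted p below 0.05. The fit shares the spread of each gene over all groups. The median SD was 0.067 and 0.086 in these controls, against 0.084 and 0.109 at 60 and 120 min of heat. The test may therefore be stricter for the controls than for the heat step, which was not tested. With the values as deposited, without quantile normalization, 1917 genes were called but the split moved to 1287 rises and 630 falls, 67.1% rises against 53.9% with it. With only the 6 arrays in the fit 1238 genes were called.

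**Figure D1:**
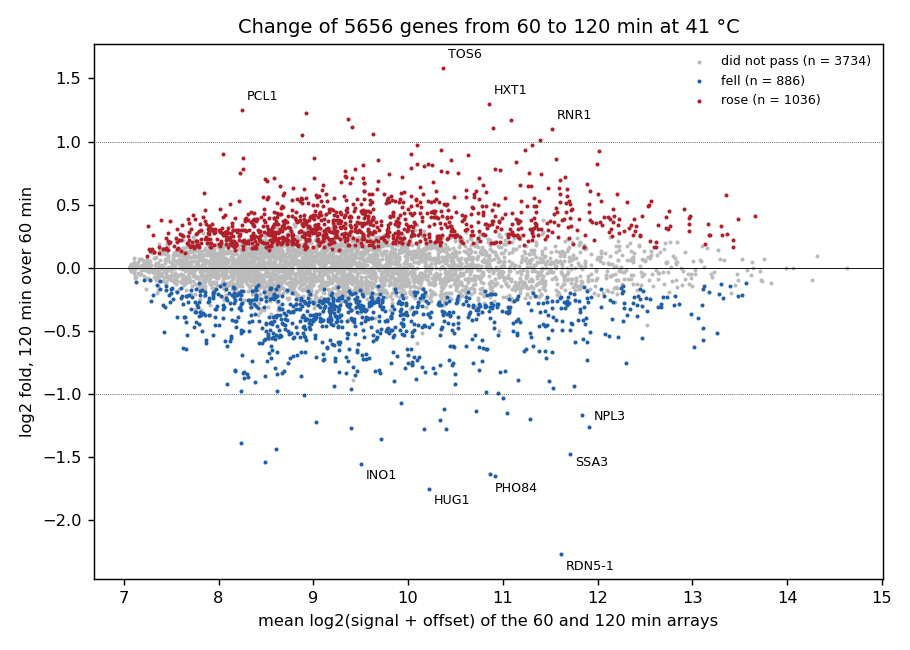
Change of each of 5656 genes from 60 to 120 min at 41 °C (vertical axis, log2 fold, 120 min over 60 min) against its mean log2(signal + offset) on the 6 arrays (horizontal axis). Red points are the 1036 genes that rose, blue the 886 that fell and grey those that did not pass limma's test. Nearly all points lie between the dotted lines at 2-fold, and the falls reach farther (RDN5-1, -2.27) than the rises (TOS6, 1.58).

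The farthest fall was that of RDN5-1, which encodes 5S ribosomal RNA and has several near-identical copies that its probe sets cannot separate. Its signals were 4845, 9025 and 7100 at 60 min and 1132, 1418 and 1414 at 120 min, a log2 change of -2.27 ± 0.35 (limma adjusted p = 3.08e-05). The groups lay far apart, and the spread at 60 min was wide. At 30 min its mean had been 12708 ± 901.6 (SD, n = 3), against 2884 ± 1080 in the 0 min control. At 120 min it differed from the 120 min control by -1.19 (limma adjusted p = 0.00433). At 360 min its mean was 2362 ± 2066 (SD, n = 3). The array's control probe sets for ribosomal RNA averaged 7.16 at 60 min and 7.19 at 120 min (log2 of the deposited signal, exact permutation p = 0.9). How well the array measures 5S ribosomal RNA was not tested.

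HUG1, which encodes a small inhibitor of ribonucleotide reductase made after DNA damage, gave 1559, 2420 and 2355 at 60 min and 524.2, 574.6 and 512.3 at 120 min. Its fall of -1.75 ± 0.12 (limma adjusted p = 3.05e-10) left it still above the 120 min control by 0.63. RNR3, the damage-inducible subunit of that reductase and named here after its values were seen, fell by 0.79. In contrast RNR1, the main large subunit, rose by 1.10 ± 0.11, from 2471, 1625 and 1669 to 4329, 4065 and 4123. HUG1 and RNR3 on one side and RNR1 on the other thus moved in opposite directions over the same hour.

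SSA3 was the chaperone gene that moved most. It encodes a stress-induced cytosolic Hsp70, and its signals went from 4871, 6222 and 5361 to 1531, 2094 and 2117, a change of -1.47 ± 0.19 (limma adjusted p = 4.75e-06). It remained above the 120 min control by 2.25, where the 30 min arrays had stood 4.30 above the 0 min control. NPL3, an abundant mRNA-binding protein of nuclear export, fell from 5598, 6577 and 5377 to 2187, 2147 and 2840 (-1.26 ± 0.12) and ended 0.39 below the control of the same time (-0.39).

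A pair of overlapping genes fell together. YBR090C, of unknown function, went from 3060, 3465 and 3447 to 1120, 958.5 and 883.2 (-1.65 ± 0.10), and NHP6B, a small chromatin-binding HMG-box protein, from 1531, 1737 and 1752 to 697.5, 645.0 and 537.9 (-1.27 ± 0.09). The RefSeq gene table (assembly R64) places them on overlapping positions, so their signals may not be independent. YBR090C has 2 probe sets, of which the brighter is given, and its change ran from -1.76 to -0.9 over the alternatives. YDL218W, also of unknown function, fell by 1.54, to signals of 79.44 to 113.7, where its mean had been 131 ± 10.6 (SD, n = 3) in the 0 min control and 2613 at 30 min.

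Other genes that fell at least 2-fold included SRL3 (-1.21 ± 0.09), a G1 regulator related to Whi5, CRG1 (-1.27 ± 0.11), a methyltransferase, and SSK22 (-1.22 ± 0.11), a kinase of the osmotic stress pathway. APE1, a vacuolar aminopeptidase, went from 1228, 1165 and 1297 to 432.1, 312.6 and 511.5 (-1.35 ± 0.13). YNL058C (-1.27 ± 0.12) has no assigned function here. CPP3 (-1.16), TRS65 (-1.07) and SNR7-L, just inside the limit, lay outside the rule for naming and are named after their values were seen. Of the 24 genes that fell at least 2-fold, 20 had been higher than the 0 min control at 30 min, as 40.7% of all genes had, and 2 had been lower.

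On the offset scale the strongest rise was that of TOS6, a cell wall protein whose gene is a target of the G1 transcription factor SBF. The ranking depends on the offset, since the highest change over the alternatives was 1.97 for TOS6 and 2.26 for the dimmer gene PCL1. TOS6 gave 1196, 467.7 and 471.8 at 60 min and 3065, 1575 and 2109 at 120 min, 1.58 ± 0.24 or 2.99-fold (limma adjusted p = 3.06e-05). Replicate 1 at 60 min stood well above the others and nearest to the 120 min arrays. The groups did not overlap, which the rule for naming the largest rises required. The same array was the highest of its group for all 12 genes that rose at least 2-fold and the lowest for 15 of the 24 that fell as much. Without it 23 genes rose at least 2-fold, against 12 with it.

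URA6, the uridylate kinase of pyrimidine nucleotide synthesis, went from 1367, 1364 and 1285 to 2198, 4018 and 3548 (1.17 ± 0.16). CSI2, linked to chitin synthesis, went from 263.8, 178.6 and 172.7 to 666.5, 654.6 and 561.0 (1.23 ± 0.12), and PRY2, a secreted sterol-binding protein, rose by 1.11 ± 0.13. GRX8, a glutaredoxin, rose by 0.97 ± 0.09 and ZUO1, a chaperone that sits on the ribosome, by 0.94 ± 0.09. All 12 genes that rose at least 2-fold had been lower than the 0 min control at 30 min, as 40.2% of all genes had, among them TOS6 by 2.97 on the log2 scale (-2.97).

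**Figure D2:**
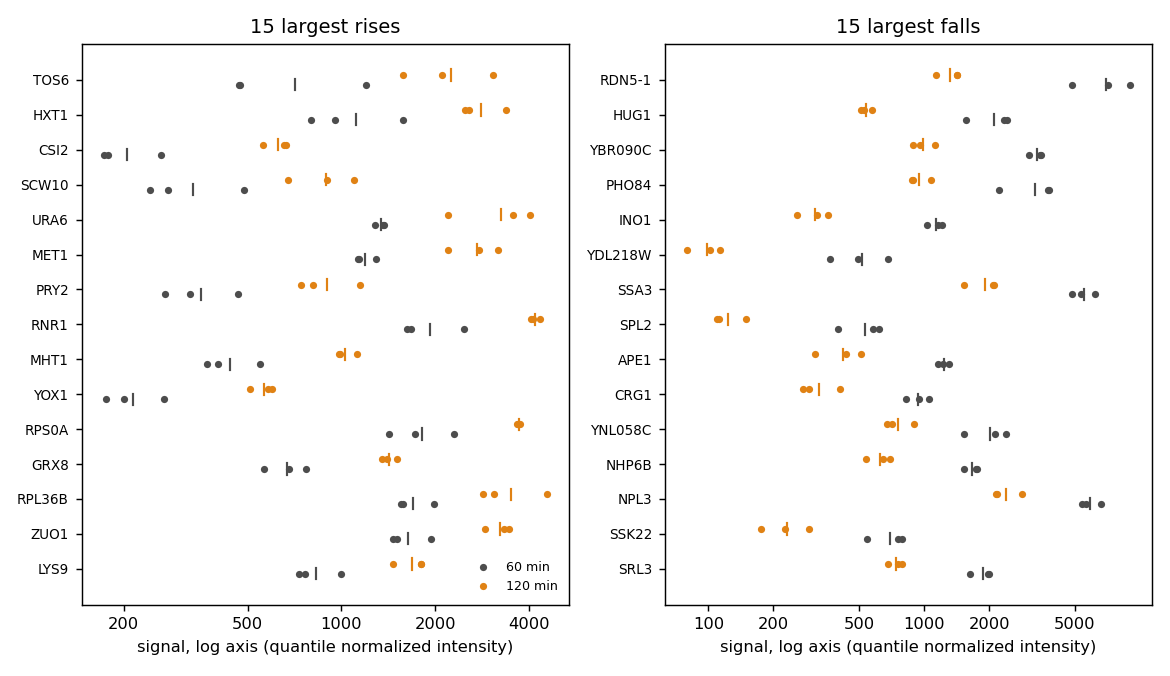
Signal of each array (quantile normalized intensity, log axis) for the 15 largest rises (left) and 15 largest falls (right) among genes whose groups did not overlap and whose brighter group lay above the median level. Points are single arrays at 60 min (grey) and 120 min (orange), and ticks are group means. Genes with overlapping groups were left out by this choice. A single high array at 60 min stands out for TOS6, SCW10 and CSI2.

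Members of 46 gene lists, each a pathway or complex, were then counted against the background of 18.3% rising and 15.7% falling. The lists with the highest medians were those of the mitochondrial and cytosolic ribosome and of tRNA charging. The lowest median among lists of 10 or more measured genes was in zinc and copper genes.

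**Figure D3:**
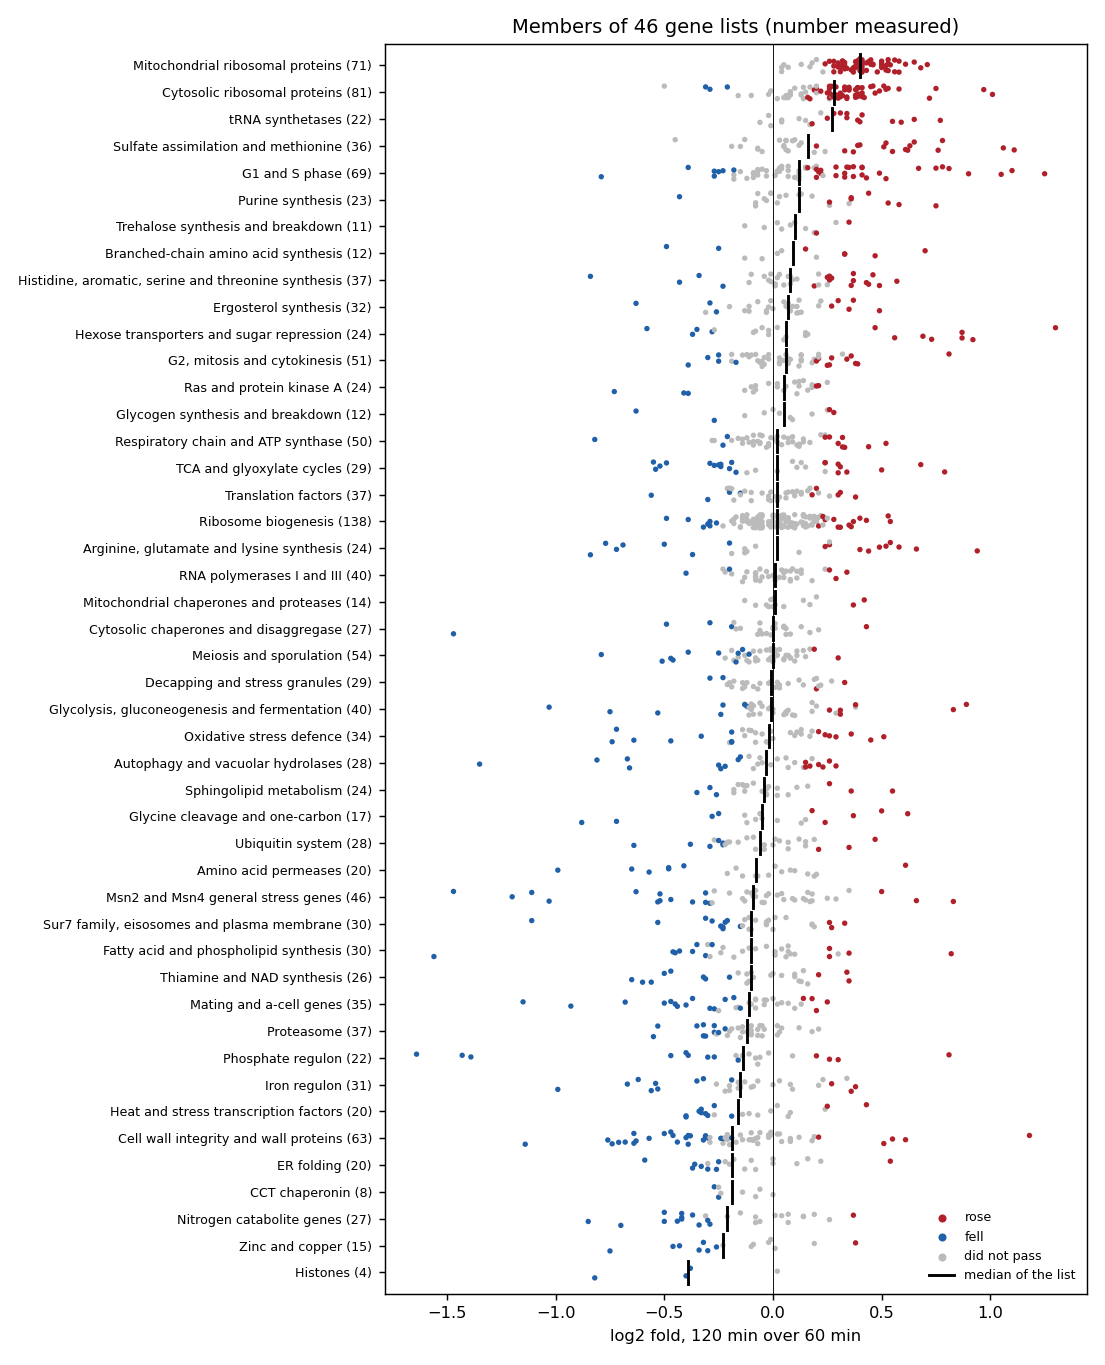
Log2 fold, 120 min over 60 min, of every measured member of 46 gene lists, ordered by list median (black bar), with the number measured in brackets. Red members rose, blue fell and grey did not pass limma's test. The mitochondrial ribosomal protein list (median 0.40) has no member that fell, and single members such as PHO84 and INO1 lie far from the median of their own list.

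Genes for the mitochondrial ribosome, which makes the few proteins encoded in mitochondrial DNA, nearly all rose. Of 71 measured, 62 rose, 0 fell and 9 did not pass, with a median of 0.40 against 0.01 over all genes. The list median relative to the 0 min control was 0.01, -0.11 and -0.16 on the 3 arrays at 60 min and 0.20, 0.29 and 0.40 on those at 120 min, so all 3 later arrays lay above the earlier ones. MRPS16, a small subunit protein, went from 328.2, 271.6 and 271.0 to 526.5, 463.7 and 661.2 (0.71 ± 0.11), and MRPL20 of the large subunit from 427.5, 404.7 and 317.1 to 629.7, 640.0 and 778.4 (0.68 ± 0.08). MRPL15 (0.65), MRPL31 (0.61) and MRPL36 (0.58) moved likewise.

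Most of these genes stood above the unheated level at 120 min. Then 49 of the 71 genes were higher than in the 120 min control and 0 were lower, where 33.3% of all genes were higher and 35.6% lower. At 360 min against the 240 min control 18 were higher and 15 lower, where 31% and 34.8% of all genes were. The comparison with the 120 min control uses the same 120 min heat arrays as the step from 60 min. With values as deposited the count of rises was 64, with median scaling 62 and with only the 6 arrays 50. No member fell in any of these settings.

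Cytosolic ribosomal protein genes, the classic set turned down by heat, also moved up. Of 81 measured among 138 listed, since many copies share probe sets and were left out, 53 rose, 3 fell and 25 did not pass, with a median of 0.28. RPS0A, of the small subunit, went from 2299, 1425 and 1724 to 3755, 3669 and 3699 (1.01 ± 0.10), and RPL36B from 1982, 1577 and 1549 to 2848, 3091 and 4575 (0.97 ± 0.16). RPL13B (0.75), RPL15A (0.72) and RPS21B (0.58) rose too, while RPL7B, RPL22B and RPS27A, named after their values were seen, fell by 0.31, 0.29 and 0.21. The list had stood at -2.30 relative to the 0 min control at 30 min and at -0.53 at 60 min, and it was at -0.28 at 120 min and -0.26 at 360 min. Of these 81, 52 were still lower than the 120 min control and 2 were higher. Paralogous copies are near-identical, so values of single members are uncertain. The count of rises was 40 with median scaling, 56 as deposited, 42 with only the 6 arrays and 43 to 58 with 1 array left out.

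Genes for cytosolic aminoacyl-tRNA synthetases, the enzymes that charge tRNAs, followed the same direction, with 13 of 22 up, 0 down and a median of 0.27. CDC60, the leucyl enzyme, went from 674.0, 1109 and 929.0 to 1364, 1641 and 1790 (0.77 ± 0.12), and GUS1, the glutamyl enzyme, from 2107, 1725 and 1876 to 2882, 3053 and 3195 (0.65 ± 0.08). DPS1 rose by 0.59, CRS1 by 0.55 and DED81 by 0.41. Against the 120 min control 15 of the 22 were still lower and 0 higher. The rises were 9 with median scaling (median 0.17), 14 as deposited, 10 with only the 6 arrays and 9 to 14 with 1 array left out.

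Ribosome assembly factors did not share in this. Of 138 measured genes of ribosome biogenesis 13 rose and 7 fell, both shares below the background, and the median was 0.02. The list stood 0.48 below the 120 min control (-0.48), where 108 members were lower and 3 higher. URB1 (0.53 ± 0.09) and REA1 (0.43 ± 0.09), assembly factors of the large subunit, rose, and NOP1, the methyltransferase fibrillarin, fell from 1408, 1618 and 1661 to 1132, 1081 and 1010 (-0.49 ± 0.13). Without replicate 3 at 120 min, 4 rose, as with only the 6 arrays, and without replicate 1 at 60 min 11 fell. RNA polymerase I and III genes gave 3 rises and 2 falls of 40, and translation factors 5 and 4 of 37. For the translation factors median scaling gave 1 and 8, the values as deposited 5 and 1, and leaving out 1 array 1 to 5 rises (1 without replicate 3 at 120 min, 2 without replicate 3 at 60 min) and 2 to 5 falls (2 without replicate 2 or 3 at 60 min). DED1, a helicase of translation initiation, fell by 0.56 ± 0.09.

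**Figure D4:**
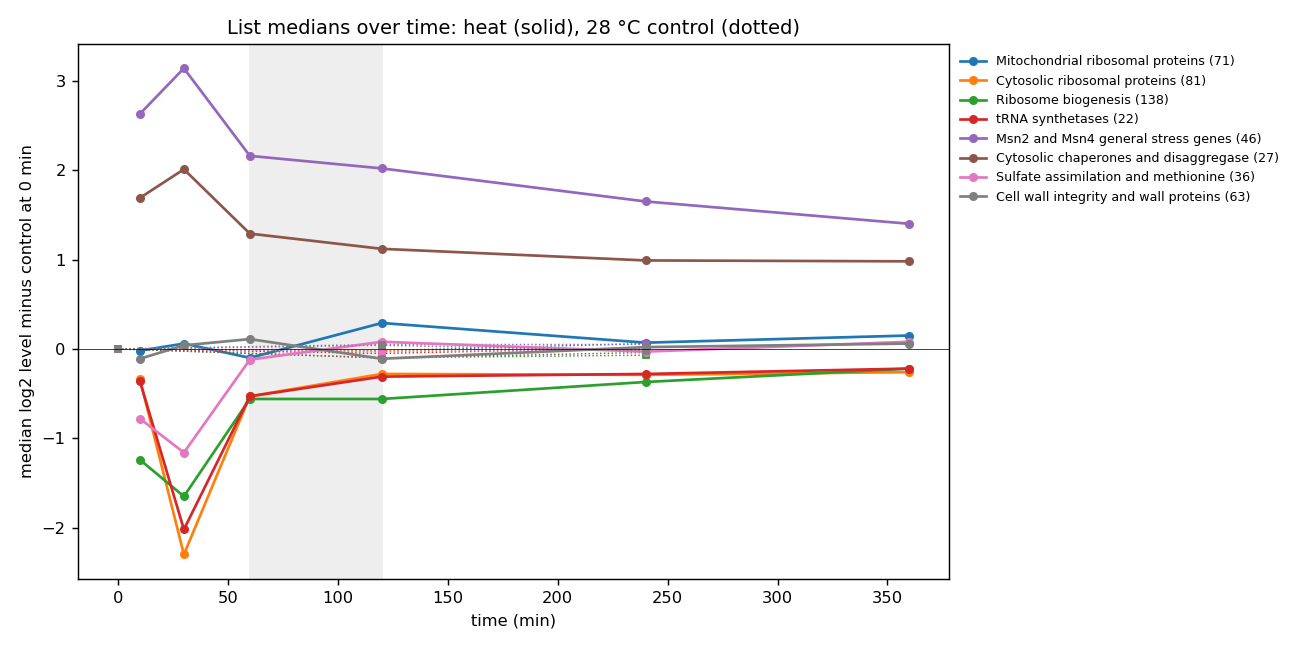
Median log2 level of 8 gene lists relative to the 0 min control (vertical axis) against time (horizontal axis, min), with heat as solid lines and the 28 °C controls as dotted lines, and the number of genes in brackets. The shaded span is the step from 60 to 120 min. In it the mitochondrial ribosomal list crosses from -0.10 to 0.29, cytosolic ribosomal proteins go from -0.53 to -0.28, and ribosome biogenesis stays at about -0.56.

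The chaperone programme was nearly level over this hour. Among 27 cytosolic chaperone and disaggregase genes 1 rose, 4 fell and 22 did not pass, with a median of 0.00, and 24 were higher than in the 120 min control. HSP104, the disaggregase, gave 6889, 7230 and 6547 at 60 min and 6626, 6770 and 7430 at 120 min (0.01 ± 0.09), with overlapping groups. HSP82, the inducible Hsp90, gave -0.07 ± 0.08 and SSA4, another inducible Hsp70, -0.05 ± 0.12. SSA1 was the brightest tested gene on all 6 arrays, so quantile normalization fixed its difference at 0.

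The 5 that passed were SSE2, an Hsp110 exchange factor, with a rise of 0.43 ± 0.09, and SSA3, CUR1, HSP26 and AHA1 with falls. CUR1, which sorts misfolded proteins to the nucleus, went from 989.9, 936.7 and 956.2 to 634.9, 630.2 and 691.8 (-0.49 ± 0.11). HSP26, a small heat shock protein, fell by 0.29 ± 0.09 and AHA1, an Hsp90 activator, by 0.19 ± 0.07, but 2 of the 27 genes fell with the values as deposited, without replicate 3 at 60 min or without replicate 1 at 120 min. Of the 4 that fell, SSA3 was thus alone in changing by more than 1 log2 unit. HSF1 itself gave -0.01 ± 0.08, and HSP42, a small heat shock protein that gathers misfolded proteins, 0.21 ± 0.10 (limma adjusted p = 0.103).

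Folding genes of other compartments differed in their counts. Of 20 genes of the endoplasmic reticulum 7 fell and 1 rose, with a median of -0.19. MPD1, a disulfide isomerase, went from 678.1, 608.1 and 653.6 to 422.3, 392.5 and 364.8 (-0.59 ± 0.08), and ROT1 fell by 0.36 ± 0.07. ERV2, a thiol oxidase, rose by 0.54 ± 0.09. In mitochondria 2 of 14 rose and 0 fell, a share of rises below the 18.3% of all genes, with a median of 0.01. The rises were ZIM17 (0.37 ± 0.08), a partner of mitochondrial Hsp70, and MGE1 (0.42 ± 0.10), its exchange factor. With only the 6 arrays in the fit 0 of the 14 rose. For the proteasome, 10 of 37 genes fell and 0 rose, with a median of -0.12. Without replicate 2 at 60 min 6 fell and 1 rose, and without replicate 1 at 120 min 7 fell and 1 rose with a median of -0.05. UMP1, its assembly chaperone, went from 461.8, 455.2 and 492.8 to 291.8, 312.3 and 254.0 (-0.55 ± 0.08), while 29 of the 37 were still higher than in the 120 min control and 0 lower.

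General stress genes under Msn2 and Msn4 were mixed. Of 46, 13 fell and 3 rose, with a median of -0.09, and 44 remained higher than in the 120 min control. FMP16, a mitochondrial protein of unknown role, went from 3971, 3625 and 3430 to 1805, 1328 and 1510 (-1.20 ± 0.12), and ALD3, a cytosolic aldehyde dehydrogenase, from 3249, 2765 and 2474 to 1588, 1140 and 1264 (-1.03 ± 0.12). GPH1, glycogen phosphorylase, fell by 0.63 ± 0.11 and CTT1, cytosolic catalase, by 0.47 ± 0.13. HXK1, a hexokinase, moved the other way, from 4038, 2437 and 2571 to 4951, 5330 and 5630 (0.83 ± 0.11). HSP12, a membrane-stabilising stress protein, gave -0.20 ± 0.10 (limma adjusted p = 0.121). Without replicate 1 at 60 min, 8 of the 46 rose and 12 fell.

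Trehalose and glycogen genes changed little. Of 11 trehalose genes 2 rose and 0 fell, and of 12 glycogen genes 2 rose and 2 fell. Without replicate 1 at 60 min 4 rose in each list. But 0 glycogen genes rose without replicate 2 or 3 at 60 min, without replicate 3 at 120 min or with only heat arrays. Trehalose rises were 1 to 4 with 1 array left out. TPS1, which makes trehalose phosphate, gave -0.04 ± 0.06, and 10 of the 11 trehalose genes were still higher than in the 120 min control. Of 20 genes for heat and stress transcription factors 9 fell and 2 rose, but with the values as deposited or with only the 6 arrays 3 fell, and without replicate 3 at 60 min or at 120 min 4 and 5. GIS1, a factor of nutrient-limited growth, fell by 0.40 ± 0.09 and YAP5, an iron-responsive factor, rose by 0.43 ± 0.09. The oxidative stress list gave 7 rises and 8 falls of 34 (5 falls as deposited), among the falls TSA2 (-0.74 ± 0.08), a stress-induced peroxiredoxin, and SRX1 (-0.72 ± 0.13), which restores peroxiredoxins, and among the rises GSH1 (0.51 ± 0.09), the first enzyme of glutathione synthesis.

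Among genes of the G1 to S transition rises outnumbered falls. Of 69 listed and measured, 28 rose, 7 fell and 34 did not pass, with a median of 0.12. PCL1, a G1 cyclin of the kinase Pho85, gave 179.2, 47.40 and 47.40 at 60 min and 414.4, 262.7 and 403.9 at 120 min (1.25 ± 0.16), with replicate 1 at 60 min again the highest of its group. CLN2, a G1 cyclin that starts the cell cycle, went from 136.5, 116.5 and 106.6 to 329.7, 260.6 and 273.8 (0.78 ± 0.09), with no overlap between the groups. YOX1, a repressor of genes expressed as cells leave mitosis, rose by 1.05 ± 0.09, MCD1, a cohesin subunit, by 0.90 ± 0.12, and POL30, the sliding clamp of DNA replication, by 0.81 ± 0.07.

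The 7 falls of that list included WHI5, the repressor of the G1 factor SBF, at -0.39, and the replicative helicase genes MCM3, MCM6 and MCM7 at -0.27, -0.25 and -0.27, all named after their values were seen. With values as deposited 4 of the 69 fell. Of 4 measured histone genes 3 fell, HTB2 from 2488, 2770 and 2669 to 1597, 1370 and 1395 (-0.82 ± 0.10), HTB1 by 0.40 ± 0.10 and the variant HTZ1 by 0.38 ± 0.09. In G2 and mitosis 10 of 51 genes rose and 5 fell (3 without replicate 2 or 3 at 60 min or at 120 min, 2 as deposited), among the rises the mitotic cyclins CLB1 (0.39 ± 0.08) and CLB2 (0.27 ± 0.08). CLB2 was still 0.63 below the 120 min control (-0.63), and CLN2 0.49 below it (-0.49). The median of the G1 and S phase list against control was 0.03 at 120 min and 0.18 at 360 min.

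Genes for glucose uptake and repression contained several of the stronger rises. HXT1, the low-affinity transporter induced by high glucose, went from 1579, 800.2 and 951.1 to 3384, 2563 and 2499 (1.30 ± 0.17). HXT3, another low-affinity transporter, went from 3783, 2535 and 2486 to 5562, 5491 and 5646 (0.92 ± 0.11), and HXT4 rose by 0.87 ± 0.15. Replicate 1 at 60 min was the highest of its group for all 3 transporters. No groups overlapped, which the rule for naming the largest rises required of HXT1. The transporter corepressor MTH1 rose by 0.87 ± 0.12 and the glucose repressor MIG2 by 0.73 ± 0.10. In all, 8 of 24 rose and 4 fell, the latter HXT5, RGT2, HXT10 and HXT2 (-0.58, -0.37, -0.35 and -0.28), named after their values were seen. Hexose transporters are similar in sequence, so part of a signal may come from another transporter, which was not tested.

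Central carbon metabolism changed gene by gene. In glycolysis, gluconeogenesis and fermentation 6 of 40 rose and 7 fell (4 as deposited and 4 without replicate 3 at 120 min), ALD6, a cytosolic acetaldehyde dehydrogenase, rising from 1243, 928.2 and 995.5 to 2317, 1792 and 2042 (0.89 ± 0.10) and PDC6, a minor pyruvate decarboxylase, falling by 0.75 ± 0.09. In the TCA and glyoxylate cycles 9 of 29 rose and 12 fell, against 6 and 6 as deposited. LSC2, of succinyl-CoA ligase, rose by 0.79 ± 0.09 and MAE1, the malic enzyme, by 0.68 ± 0.13, while ACO1, aconitase, went from 5614, 5545 and 5709 to 4197, 3729 and 3555 (-0.54 ± 0.06) and CIT2, peroxisomal citrate synthase, fell by 0.55 ± 0.06. Of 50 respiratory chain and ATP synthase genes 8 rose and 3 fell. ATP18 rose by 0.52 ± 0.08 and ATP7 by 0.44 ± 0.11, both of ATP synthase, and NDE2, an external NADH dehydrogenase, fell by 0.82 ± 0.09. The medians of the respiratory and TCA lists were 0.02 and turned to -0.02 and -0.03 with median scaling.

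Sulfur genes gave rises and no falls, though many did not pass. Of 36 genes for sulfate assimilation, methionine and sulfur uptake 16 rose, 0 fell and 20 did not pass, with a median of 0.16. MET1, of siroheme synthesis for sulfite reductase, went from 1295, 1140 and 1133 to 2207, 2761 and 3185 (1.11 ± 0.10), and MHT1, which makes methionine from S-methylmethionine, from 549.4, 401.4 and 371.1 to 981.5, 1119 and 990.7 (1.06 ± 0.09). YCT1, a cysteine transporter, rose by 0.78 ± 0.14, MET16, a reductase of sulfate assimilation, by 0.76 ± 0.11, and MET28, a cofactor of the activator Met4, by 0.65 ± 0.09. The list median relative to control was -1.16 at 30 min, -0.12 at 60 min and 0.14 at 120 min, when 16 members were higher than the control and 9 lower. With median scaling 15 rose and 1 fell, and leaving out 1 array gave 15 to 16 rises and 0 or 1 fall.

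Genes of amino acid synthesis moved in both directions. Among 24 genes of arginine, glutamate and lysine synthesis 10 rose and 7 fell. LYS9, of lysine synthesis, went from 995.5, 733.0 and 766.6 to 1796, 1468 and 1806 (0.94 ± 0.10), and 6 more of the 10 rises were lysine genes (LYS1, LYS2, LYS4, LYS12, LYS20 and LYS21, 0.40 to 0.66, named after their values were seen). Among the falls, ARG3, of arginine synthesis, went from 1586, 1752 and 1882 to 1120, 872.2 and 931.9 (-0.77 ± 0.09), ARG4 and ARG8 of the same route fell by 0.72 ± 0.09 and 0.69 ± 0.09, and CAR2, of arginine breakdown, fell by 0.84 ± 0.14. Of 12 branched-chain genes 5 rose and 2 fell, LEU1 rising by 0.70 ± 0.13 and BAT2 falling by 0.49 ± 0.09. In the histidine, aromatic, serine and threonine group 13 of 37 rose and 4 fell, ASN1, asparagine synthetase listed with them, falling by 0.84 ± 0.10 and PRO1, of proline synthesis, rising by 0.57 ± 0.09.

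Nucleotide and one-carbon genes moved less evenly. Of 23 purine genes 7 rose and 1 fell, with IMD4 (0.75 ± 0.11), IMD2 (0.58 ± 0.07) and IMD3 (0.53 ± 0.07), copies of IMP dehydrogenase similar enough that their separate values are uncertain, and ADE4, the first step, at -0.43 ± 0.09. The glycine cleavage genes GCV2, from 1413, 1261 and 1420 to 785.9, 690.3 and 596.4 (-0.88 ± 0.09), and GCV1 (-0.72 ± 0.11) fell. MIS1, mitochondrial folate enzyme, rose by 0.62 ± 0.10, and the one-carbon list as a whole gave 5 rises and 4 falls of 17, with 2 falls as deposited and 2 without replicate 3 at 60 min or replicate 2 or 3 at 120 min.

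Of 27 genes for scavenging nitrogen, under nitrogen catabolite repression, 12 fell, 1 rose and 14 did not pass, with a median of -0.21. DAL4, the allantoin permease, went from 818.0, 751.2 and 887.7 to 512.7, 417.8 and 303.2 (-0.85 ± 0.16), and PUT1, proline oxidase, from 1389, 1328 and 1197 to 775.8, 636.9 and 868.8 (-0.70 ± 0.12). Without replicate 2 at 120 min 7 of the 27 fell. Of 20 amino acid permeases 6 fell and 1 rose, DIP5, the acidic amino acid permease, falling from 2628, 2495 and 2893 to 1420, 1301 and 1145 (-0.99 ± 0.08) and AGP3 rising by 0.61 ± 0.14. With only the 6 arrays 2 of the 20 fell.

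Phosphate genes held some of the strongest falls. PHO84, the high-affinity phosphate transporter, gave 2232, 3734 and 3807 at 60 min and 880.1, 1073 and 886.4 at 120 min (-1.64 ± 0.16, limma adjusted p = 1.28e-07). It had been low at 30 min (505.1 ± 147.6, SD, n = 3), stood 0.08 from its 0 min control (3002 ± 277.8) at 60 min on the log2 scale, and was low again at 120 min. SPL2, an inhibitor of low-affinity phosphate uptake, went from 398.1, 578.9 and 620.1 to 112.3, 149.7 and 109.1 (-1.43 ± 0.10), and PHO92, a reader of methylated mRNA linked to the phosphate pathway, from 392.0, 369.5 and 365.0 to 80.15, 76.25 and 63.78 (-1.39 ± 0.09). PHO3, an acid phosphatase, rose by 0.81 ± 0.12, and of 22 phosphate genes 9 fell and 4 rose. The rises were 2 with median scaling and under 6 other alternatives.

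Genes for metal uptake and handling gave more falls than rises. Of 31 iron regulon genes 9 fell and 3 rose, with a median of -0.15, FIT2, a cell wall protein that retains iron carriers, going from 2288, 2704 and 2323 to 1378, 1013 and 1148 (-0.99 ± 0.15). FRE2 (-0.67 ± 0.11) and FRE1 (-0.56 ± 0.10), surface iron reductases, fell as well, as did ISU1 (-0.54 ± 0.09), a scaffold for iron-sulfur clusters. Of 15 zinc and copper genes 7 fell and 1 rose, among them ZRT2, a zinc transporter (-0.75 ± 0.12), with 4 falls without replicate 3 at 120 min. Thiamine and NAD genes gave 8 falls and 3 rises of 26, with BNA4, of NAD synthesis, at -0.65 ± 0.07.

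Of 30 genes for fatty acid and phospholipid synthesis 8 fell, 4 rose and 18 did not pass. INO1, which makes inositol phosphate, went from 1035, 1210 and 1156 to 359.9, 317.9 and 257.6 (-1.56 ± 0.10, limma adjusted p = 3.05e-10), where its mean was 390.1 ± 45.31 (SD, n = 3) in the 120 min control. OPI3 (-0.46 ± 0.11) and CHO2 (-0.43 ± 0.08), the methyltransferases of phosphatidylcholine synthesis, and ITR1, the inositol transporter (-0.45 ± 0.08), fell too. FAA4, a fatty acid activating enzyme, rose from 962.6, 646.3 and 753.0 to 1736, 1254 and 1438 (0.82 ± 0.10). As deposited 5 of the 30 fell, with median scaling 2 rose, and 2 to 4 rose with 1 array left out (2 without replicate 2 or 3 at 60 min or replicate 2 at 120 min). Ergosterol genes gave 5 rises (3 without replicate 2 at 120 min) and 3 falls of 32, and sphingolipid genes 3 and 3 of 24.

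In the cell wall integrity pathway surface sensors signal to the kinase Slt2 and the factor Rlm1. Of 63 genes of the pathway and of the wall together 25 fell, 5 rose and 33 did not pass, with a median of -0.19. SLT2 went from 2182, 2548 and 2429 to 844.2, 1109 and 1138 (-1.14 ± 0.13, limma adjusted p = 5.62e-07), leaving it 0.96 above the 120 min control. PST1, a wall protein induced through this pathway, fell from 6173, 6393 and 6770 to 3807, 4048 and 3465 (-0.76 ± 0.08), CHS7, which exports chitin synthase, by 0.74 ± 0.13 and the sensor gene WSC3 by 0.71 ± 0.12. The rises were SCW10, a wall glucanase relative, from 485.5, 242.5 and 277.7 to 1101, 899.9 and 672.0 (1.18 ± 0.16), and, named after their values were seen, CIS3 (0.61), SCW4 (0.55), EGT2 (0.51) and GAS1 (0.21). RLM1 itself fell by 0.63 and the sensor genes MID2 and MTL1 by 0.44 and 0.47, also named after their values were seen. SCW10 has 2 probe sets, of which the brighter is given, and its rise ran from 0.6 to 1.45 over the alternatives.

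Mating genes fell in part. Of 35, 14 fell and 4 rose, with a median of -0.11. PRM5, induced by pheromone and by wall stress, went from 2410, 3290 and 3526 to 1139, 1557 and 1258 (-1.15 ± 0.12), and MFA2, an a-factor gene, from 551.9, 792.6 and 802.6 to 342.3, 350.8 and 259.8 (-0.93 ± 0.12). The phosphatase MSG5, which acts on the mating and wall kinases, fell by 0.68 ± 0.08 and the scaffold STE5 by 0.50 ± 0.08. The rises were 1 with median scaling and 1 to 3 with any 1 array left out. FMP45, a Sur7 family membrane protein, fell from 2123, 1617 and 1819 to 1145, 637.9 and 665.4 (-1.11 ± 0.14), one of 10 falls against 3 rises among 30 genes of eisosomes and the plasma membrane, a count of falls that was 2 with only the 6 arrays and 4 to 6 without replicate 1 or 3 at 60 min or replicate 2 or 3 at 120 min.

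The remaining lists gave mixed counts. Of 54 meiosis genes 10 fell (6 without replicate 3 at 60 min) and 2 rose, RIM4, a meiotic RNA-binding protein, falling by 0.79 ± 0.08. Autophagy and vacuolar genes gave 9 falls and 7 rises of 28, but 2 rises with median scaling, 5 falls as deposited, and 5 falls and 2 rises without replicate 3 at 60 min. Leaving out replicate 2 at 120 min gave 3 rises, and replicate 3 at 120 min 4 rises and 5 falls. Among the falls was ATG8, the ubiquitin-like protein of autophagosomes, from 1886, 2641 and 2014 to 950.5, 1156 and 1502 (-0.81 ± 0.14), and the list median of -0.03 turned to 0.03 as deposited. The ubiquitin system gave 6 falls and 3 rises of 28, with UBC5 at -0.64 ± 0.12. Ras and protein kinase A genes gave 3 falls and 2 rises of 24, with PDE1, a cAMP phosphodiesterase, at -0.73 ± 0.10. Decapping and stress granule genes gave 2 falls and 2 rises of 29, and the CCT chaperonin, which folds actin and tubulin, 2 falls and 0 rises of 8.

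How the hour related to the earlier response was read from arrays it does not use, the 30 min heat and 0 min control arrays. Of 2303 genes higher at 30 min (40.7% of all), 285 rose (12.4%) and 511 fell (22.2%) from 60 to 120 min, while of 2273 genes lower at 30 min (40.2%) 574 rose (25.3%) and 203 fell (8.93%). Among the 1080 genes not called at 30 min the shares were 16.4% and 15.9%, near the background of 18.3% and 15.7%. Among 729 genes at least 2-fold higher at 30 min (12.9% of all) 9.05% rose and 32.2% fell, and among 802 at least 2-fold lower (14.2%) 32.8% rose and 7.11% fell. The medians of the classes were small, -0.03 for genes higher at 30 min and 0.05 for those lower.

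**Figure D5:**
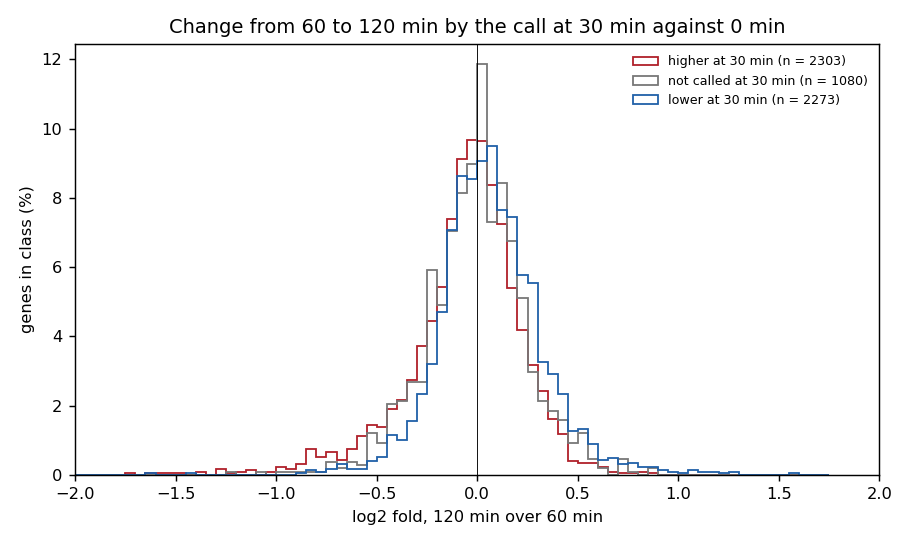
Distribution of the log2 fold, 120 min over 60 min (horizontal axis), as the percent of genes in each class (vertical axis), for genes higher (red), lower (blue) and not called (grey) at 30 min of heat against the 0 min control. Genes beyond the axis are not drawn. The red curve has the heavier left tail and the blue curve the heavier right one, with all 3 centred near 0.

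Where the movers stood at 120 min was mixed. Over all genes 33.3% were higher and 35.6% lower than the control at 120 min, and 31% and 34.8% at 360 min. Of the 1036 genes that rose, 443 (42.8%) were higher than the 120 min control and 270 (26.1%) lower. At 360 min against the 240 min control 345 (33.3%) were higher and 331 (31.9%) lower, shares near those of all genes. Of the 886 that fell, 265 (29.9%) were higher and 384 (43.3%) lower at 120 min, and 299 (33.7%) and 335 (37.8%) at 360 min. The comparison at 120 min shares the 120 min heat arrays with the step described here, so its counts are not independent of it. Of the 24 genes that fell at least 2-fold, 11 (45.8%) were still higher than the 120 min control, 10 (41.7%) were lower, and 15 (62.5%) were higher at 360 min.

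The step was also set against that of the unheated cultures between 0 and 120 min, over which their density rose from 0.50 to 0.88. The difference between the heat step and the control step passed for 1160 genes (20.5%), 614 higher (10.9%) and 546 lower (9.65%). Of the 1036 genes that rose 599 passed in the same direction, and of the 886 that fell 528. All 36 genes that changed at least 2-fold were among them, 12 rises and 24 falls. Of the mitochondrial ribosomal protein genes 50 of 71 passed upward and 0 downward, and of the cytosolic ribosomal protein genes 37 of 81 and 0. The difference contains the same 6 heat arrays as the step, and limma called 0 genes in the control step. These overlaps are therefore largely built in and are no independent support for the step. The control step also spans 120 min, the heat step 60 min. Without replicate 3 at 60 min, replicate 1 of the 120 min control or replicate 3 at 120 min of heat, the count of 1160 was 731, 749 or 772.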

How the data were processed

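The deposited table held linear intensities, 1 for each probe set on each array. Per the submitters' processing notes they came from MAS5; neither the version nor the scaling target is given in the sources used here. The labels name each array's group and call replicates biological replicates. Intensities had a floor of 20, so log2 was taken here. Of 9335 probe sets, 6504 name 1 gene, 328 several (left out), 2443 none (left out), and 60 are array controls. Where a gene had several probe sets (315 genes) the brightest on average stood for it, giving 5656 genes. The highest array median was 1.28 times the lowest, above a limit of 1.2, so arrays were quantile normalized. After 113.81, the 10th percentile, was added, limma 3.58.1 (R 4.3.3) fitted 1 mean per group to all 27 arrays (eBayes with a variance trend). P-values were adjusted over all genes by the Benjamini-Hochberg method, with a threshold of 0.05. The number of arrays limits the precision.

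Members, lists and tests were chosen with earlier results of these data known. Genes named were the 15 largest rises and falls whose groups did not overlap and whose brighter group exceeded the median level, up to 5 called members of each of 46 lists by absolute change, a short set of heat, growth and cycle genes, and others as marked. Gene names came from GEO's probe annotation and RefSeq. The fit was tested on simulated data for this comparison, with 5656 genes of which 200 changed. It recovered 100 of 100 genes changed by a log2 value of 1 and 91 of 100 changed by 0.5, and made 15 false calls. In the data 1922 genes were called and the median absolute change was 0.14. Smaller changes than 0.5 were not simulated, so recovery and false calls among them are not known. Alternatives changed the scaling, offset, dim-gene filter, probe set rule, variance trend, arrays in the fit, replicate block, background term and each array in turn. Array measures were compared by exact permutation. Sequences and promoters were not used here.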

Additional observations from a re-analysis of the deposited data

Results flagged for a closer look

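For 10 genes the step from 60 to 120 min of heat differed from the step from 0 to 120 min in the 28 °C controls by limma's test of the difference itself, with these the 5 largest differences in each direction among named genes. The differences that ran upward were those of TOS6 (1.64), HXT1 (1.40), PCL1 (1.33), URA6 (1.21) and MET1 (1.18) on the log2 scale. The control steps of these 5 genes lay between -0.11 and -0.04. Downward, the differences were -2.45 for RDN5-1, -1.79 for PHO84, -1.74 for HUG1, and -1.62 for both INO1 and YDL218W, with control steps between -0.01 and 0.18. The RDN5-1 difference carries a standard error of 0.49, the widest of the 10. These differences contain the same heat arrays as the step itself and are not independent of it.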

How the results depend on the processing

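Of 235 named genes that passed, 174 passed under every alternative run for them, and of 11 that did not, 1 passed under an alternative (TPS2 without replicate 1 at 60 min). Of 46 list medians, 17 lay farther than 0.1 from 0 and 0 of these changed sign in any setting. Of the other 29, 11 did, all within 0.05 of 0. In size the medians were less steady, and 27 of the 46 moved by more than the replicate spread. When only genes above the median level were tested, 1067 were called (559 rises, 508 falls) against 1922, 663 for the difference of the steps, 2406 at 30 min, 2003 at 120 min and 1868 at 360 min against control, fewer genes being tested. With only the 6 arrays 1238 were called (638 rises). That fit has fewer residual degrees of freedom and takes the spread from these 2 groups alone. What lowered the count was not tested. At 2-fold, no offset gave 95 (28 rises, 67 falls) and an offset of 50 gave 56 (41 falls), against 36 (12 and 24). With a term for the background level 2304 genes were called at 120 min against control (3896 without it). At 360 min against control 2084 were called (3720 without it). The background was 37.14 to 40.63 at 120 min of heat and 66.16 to 81.36 in the 120 min control. The background term and heat thus cannot be fully told apart, and the cause was not tested. Leaving out 1 array at a time gave 1366 to 1952 calls (736 to 1038 rises, 630 to 914 falls), 33 to 54 at 2-fold (8 to 23 rises, 23 to 31 falls), 4407 to 4523 at 30 min, 3596 to 3781 at 120 min and 3408 to 3511 at 360 min. The 23 rises came without replicate 1 at 60 min. For the difference of the steps the range was 731 to 1323, with 731 without replicate 3 at 60 min, 749 without replicate 1 of the 120 min control and 772 without replicate 3 at 120 min of heat, against 1160.

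Same-numbered arrays at 60 and 120 min deviated from their group means with correlations of 0.16, -0.03 and -0.45 across genes, so the numbers were not taken to pair the samples. With the replicate block 2021 genes were called, and with the number as a random block (consensus correlation 0.09) 2086, against 1922. Signal over background limits dim genes, whose folds the offset shrinks, and 3 arrays in each group limit the rest.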

Other observations

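Nuclear genes of mitochondrial gene expression and import gave more rises than falls. Of 32 genes for protein import into mitochondria, a list chosen after the values were seen, 13 rose and 0 fell between 60 and 120 min, with a median log2 change of 0.17, where 18.3% of all genes rose and 15.7% fell. Of 21 mitochondrial translation factors and tRNA synthetases, likewise chosen, 15 rose and 1 fell, with a median of 0.27. Of 8 measured genes encoded in mitochondrial DNA, likewise chosen, 0 rose and 0 fell by limma's test and 0 had an unadjusted p below 0.05, with a median of -0.05. The median difference of these 8 was -0.37 at 60 min against the 0 min control and -0.39 at 120 min against the 120 min control. For the import genes the same medians were -0.31 and -0.11. How well the arrays capture transcripts made in mitochondria was not tested, so nuclear and mitochondrial genes cannot be compared directly here.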
